A study of Mus musculus with 6 samples.

Results

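Fragments of the nuclear serine tRNAs were followed in small RNA libraries of mouse pulmonary artery smooth muscle cells. A tRNA-derived small RNA (tsRNA) was taken as a tRNA-Ser fragment when every annotation the deposited table gives for its sequence names a mature nuclear tRNA-Ser, as the table writes it mature-tRNA-Ser-AGA, mature-tRNA-Ser-CGA, mature-tRNA-Ser-GCT or mature-tRNA-Ser-TGA. This held for 1866 of 38798 sequences, 15 to 45 nt long, and for 351240 of 8966706 counts (3.92%). Of these, 1586 sequences carried a single anticodon and 280 several. GCT alone accounted for 951 sequences, CGA alone for 298, TGA alone for 178 and AGA alone for 140, while 168 were common to AGA and TGA. The rule also took in 19 sequences of a tRNA-Ser-GGA. A further 114 sequences with 8742 counts were shared with tRNAs of other amino acids and were left out.

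The cells were primary cultures of wild type mouse pulmonary artery smooth muscle, the contractile layer of the lung's arteries. A normoxia group grown under standard conditions was compared with a hypoxia group kept at 3% O2 for 24 h, with 3 biological replicates in each. The age and strain of the donor animals, and whether replicates came from separate animals, are not given in the labels. Libraries were made by Pandora-seq, a small RNA protocol in which enzymes first remove modifications that hinder adapter ligation and reverse transcription. The table holds tRNA fragments only, so markers of smooth muscle cells were not analysed here, and fewer cells, fewer tRNAs per cell and less cutting per tRNA cannot be told apart in such counts.

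The 2 libraries numbered 1 stood apart from the other 4 in both groups. They were the smallest, with 510519 (hypoxia) and 330787 (normoxia) counts against 1629726 to 2563749, and 1085 of the 1866 tRNA-Ser sequences had counts in them alone. Only 130 sequences had a count in all 6 libraries, and 539 had 1 count in all. Values are therefore given per library, as counts scaled to 1000000 counts of the table per library (CPM), and without the libraries numbered 1 where a result rests on them. The reads carry no molecular identifiers.

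Serine tRNAs are charged by seryl-tRNA synthetase, which recognises their long variable arm, a stem and loop between the anticodon arm and the T arm, rather than the anticodon. Leucine tRNAs and the selenocysteine tRNA also carry a long variable arm. Enzymes that cut a tRNA in its D loop, anticodon loop or T loop give 5' fragments, 3' fragments and internal pieces, and 3' fragments may or may not keep the CCA tail that is added after transcription. In mammals a cytidine in the variable arm of tRNA-Ser is known to be methylated on the base, a modification that blocks Watson-Crick pairing.

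RefSeq lists 21 mouse tRNA-Ser genes of 82 nt with the 4 anticodons AGA (7 genes), CGA (3), GCT (8) and TGA (3) on GRCm38, 12 of them on chromosome 13. Positions are counted from 1 at the first base of the tRNA. The D arm covers positions 10 to 25, the anticodon 34 to 36, the variable arm 44 to 57, the T arm 58 to 74 and the added CCA 83 to 85.

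The fragments the results turn on are given next, because each is the most abundant of its kind. Capitals mark the bases after position 15 in 5' end fragments, the anticodon, base 50 of the variable arm or the CCA tail. The 15-nt forms end at the shortest length in the table.
AGA and TGA, 5' end, 15 nt: gtagtcgtggccgag
AGA and TGA, 5' end, 18 nt: gtagtcgtggccgagTGG
AGA and TGA, 5' end, 24 nt: gtagtcgtggccgagTGGTTAAGG
TGA, 5' end: gcagcgatggccgag
CGA, 5' end: gtcacggtggccgag
GCT, 5' end: gacgaggtggccgagTGG
CGA, internal across the anticodon: aggcgttggactCGAaatc
GCT, internal with C at 50: ttgtgctCtgcacgcgtggg
GCT, internal with T at 50: tgtgctTtgcacgcgtgggttc
GCT, 3' end without CCA: gaatcccatcctcgtcg
GCT, CCA end: ccaccttcgtcgCCA

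Short 5' ends made up most of the tRNA-Ser fragments. The 102 sequences of the 5' end class held 90.0% of all tRNA-Ser counts, the 1605 internal sequences 7.91%, the 153 3' ends without CCA 1.56% and the 6 CCA ends 0.537%. The 5' end share was 65.2%, 92.6% and 94.4% in hypoxia libraries 1, 2 and 3 and 65.5%, 94.7% and 94.8% in normoxia libraries 1, 2 and 3. It was lower in the libraries numbered 1 of both groups than in the other 4, where the internal share was 26.1% and 28.5% against 4.23% to 6.06%. The 3' end share without CCA was 8.52% and 5.85% in those 2 libraries and 0.433% to 0.707% in the others. The CCA end share went the other way, at 0.149% and 0.135% against 0.454% to 0.697%.

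**Figure D1:**
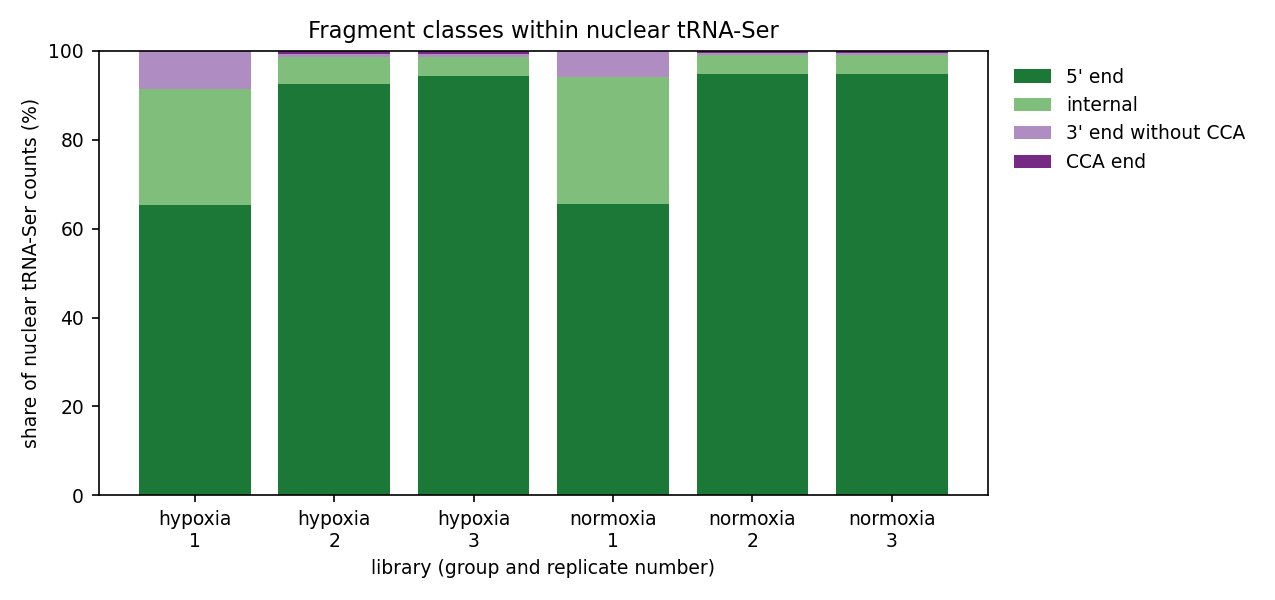
Share of nuclear tRNA-Ser counts in each fragment class, one bar per library, on an axis from 0 to 100%. The 5' end class filled 92.6% to 94.8% of each bar except in the libraries numbered 1, where it filled 65.2% and 65.5%.

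Hypoxia and normoxia libraries overlapped in each of these shares. The 5' end share averaged 84.1 ± 16.3% under hypoxia against 85% ± 16.9 under normoxia (SD over 3 libraries; exact permutation test, two-sided, p = 0.5; lower in 3 of 3 pairs of same-numbered libraries). The 3' end share without CCA was 3.31 ± 4.52% against 2.26 ± 3.11% (exact p = 0.5) and the CCA end share 0.494 ± 0.301% against 0.382 ± 0.220% (exact p = 0.5), each higher in 3 of 3 pairs. With sequences shared with tRNAs of other amino acids counted as well, the difference in the CCA end share turned to -0.666 percentage points. All of tRNA-Ser held 6.19%, 3.83% and 3.89% of all counts in hypoxia and 5.15%, 3.63% and 3.52% in normoxia, which is 4.64 ± 1.35% against 4.10 ± 0.914% (exact p = 0.5; higher in 3 of 3 pairs, with overlapping groups). Without the libraries numbered 1 the difference in the tRNA-Ser share was 0.288 percentage points. Of 18 such shares by class, anticodon, length and end position, none had an exact p under 0.2, or an adjusted p under 0.9. With 3 libraries per group the smallest p this test can give is 0.1, and 0.25 when groups are exchanged within pairs. Same-numbered libraries were taken as pairs, which was not established for numbers 2 and 3.

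Fragments that fit both tRNA-Ser-AGA and tRNA-Ser-TGA carried most of the counts. The 19 5' end sequences common to both anticodons held 300958 counts, 85.7% of all tRNA-Ser counts, and none reached past position 33, so that the counts cannot be divided between the anticodons. Together they stood at 38212, 33749 and 35353 CPM in hypoxia and 31736, 32817 and 31323 CPM in normoxia. In these CPM, which are scaled to total counts, all 3 hypoxia libraries lay above all 3 normoxia libraries. The edgeR fit over single sequences, described further on, also scaled each library by a factor. Those factors were 1.32 and 1.38 in the libraries numbered 1 and 0.839 to 0.893 in the others. With CPM divided by these factors the groups would overlap. The means were 35771 ± 2261 and 31959 ± 771 CPM (exact permutation test, two-sided, p = 0.1, the smallest possible), with ratios of 1.204, 1.03 and 1.13 in pairs 1, 2 and 3. The model across all groups of tsRNAs, described further on, gave a log2 change of 0.17 with a standard error of 0.51. With the replicate number as a block it was 0.195 with 0.149 (edgeR, adjusted p = 0.59). Without the libraries numbered 1 it was 0.13 with 0.19 (edgeR, adjusted p = 0.77). The 5' ends common to AGA and TGA were the only 1 of the 16 tested tRNA-Ser groups whose hypoxia libraries all lay above all normoxia libraries (6.25%), against 2.54% of all 276 groups tested.

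These 5' ends stopped at a few positions in the D arm. Stops at positions 15, 18, 19, 23 and 24 held 95.0 ± 1.73% of the AGA and TGA 5' end counts in hypoxia and 95.2 ± 1.30% in normoxia. The 18-nt form was the most abundant tRNA-Ser fragment, at 22687, 14975 and 15836 CPM in hypoxia and 18595, 14519 and 13594 CPM in normoxia. The 15-nt form followed with 11700, 8688 and 9078 against 9979, 9185 and 9397 CPM, and the 24-nt form stood at 748, 2951 and 3151 against 562, 2581 and 2281 CPM. In both groups the 24-nt form was lowest in the library numbered 1, while the 15-nt and 18-nt forms were highest there. Only 69 counts of this set ended at position 30 or later, near the anticodon loop.

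**Figure D2:**
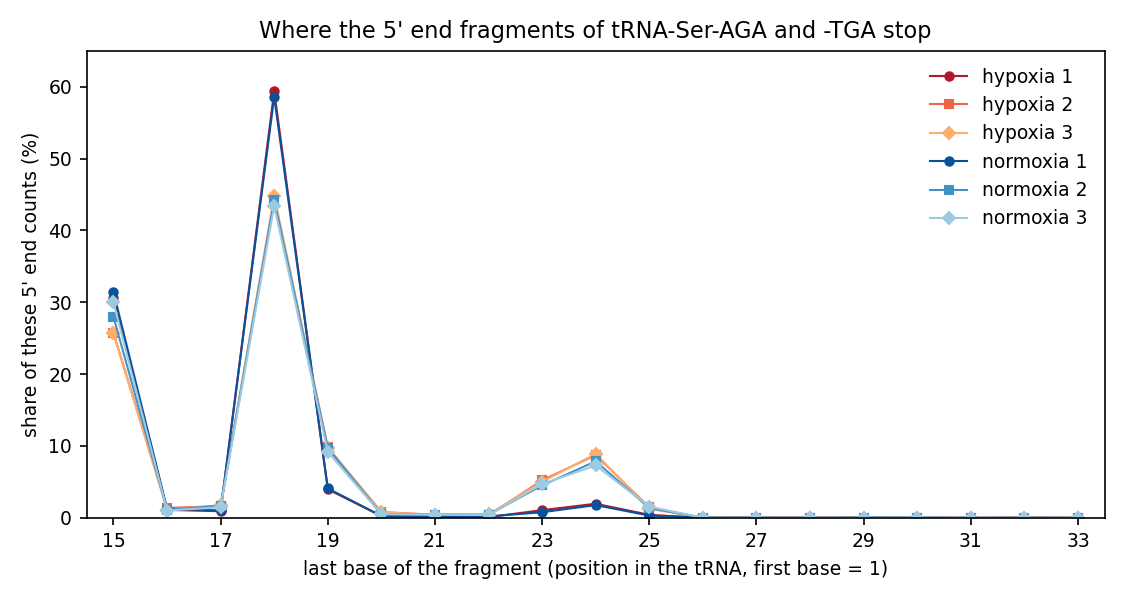
Last base of the 5' end fragments common to tRNA-Ser-AGA and tRNA-Ser-TGA, as the share of their counts in each of the 6 libraries. Stops at 15 and at 18 dominated, and stops at 23 and 24 held 11.98% to 14.0% together except in the libraries numbered 1, where they held 3.02% and 2.55%.

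The balance between short and longer stops differed a little between the groups, though within the spread of the libraries. The share stopping at 15 was 30.6%, 25.7% and 25.7% in hypoxia and 31.4%, 28.0% and 30% in normoxia, lower in 3 of 3 pairs (exact p = 0.3). The share stopping at 23 or 24 was 3.02%, 14.0% and 13.9% against 2.55%, 12.4% and 11.98%, higher in 3 of 3 pairs by ratios of 1.18, 1.13 and 1.16 (exact p = 0.5, and 0.25 when exchanged within pairs). The share stopping at 18 or 19 was 63.3%, 54.2% and 54.5% against 62.7%, 53.9% and 52.6% (exact p = 0.5). These stops were chosen after their values were seen.

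Each of the other anticodons had 5' ends of its own, which differ in the acceptor stem. The 15-nt TGA form stood at 341, 494 and 354 CPM in hypoxia and 320, 437 and 566 CPM in normoxia. The 15-nt CGA form reached 290, 76.1 and 68.8 against 239, 87.9 and 87.7 CPM, and the 18-nt GCT form 443, 187 and 200 against 396, 147 and 174 CPM. In all 3 the groups overlapped. Among the GCT 5' ends, positions 15, 18 and 24 were the most frequent stops, with 1287, 1862 and 1140 of 5610 counts.

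Few fragments crossed the anticodon. Reads that span position 34, its first base, made up 2.61%, 0.0662% and 0.0721% of tRNA-Ser counts in hypoxia and 3.47%, 0.0771% and 0.0891% in normoxia, 1642 counts in all. Of the sequences that cover the whole anticodon, 232 with 1200 counts belonged to GCT alone, 60 with 536 counts to CGA alone and 61 with 153 counts to TGA alone. No sequence of AGA alone covered it, and none under any annotation held the AGA anticodon region with G at position 34. How the table treated reads with a mismatch is not given, so a lack of such AGA fragments in the cells is not shown. The CGA fragment aggcgttggactCGAaatc had 167 counts in hypoxia library 1, 105 in normoxia library 1 and 0 in each of the other 4. A 3' fragment that runs from position 37 to 82 would be 46 nt long, and 49 nt with CCA, which is beyond the 45 nt of the longest sequence in the table.

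**Figure D3:**
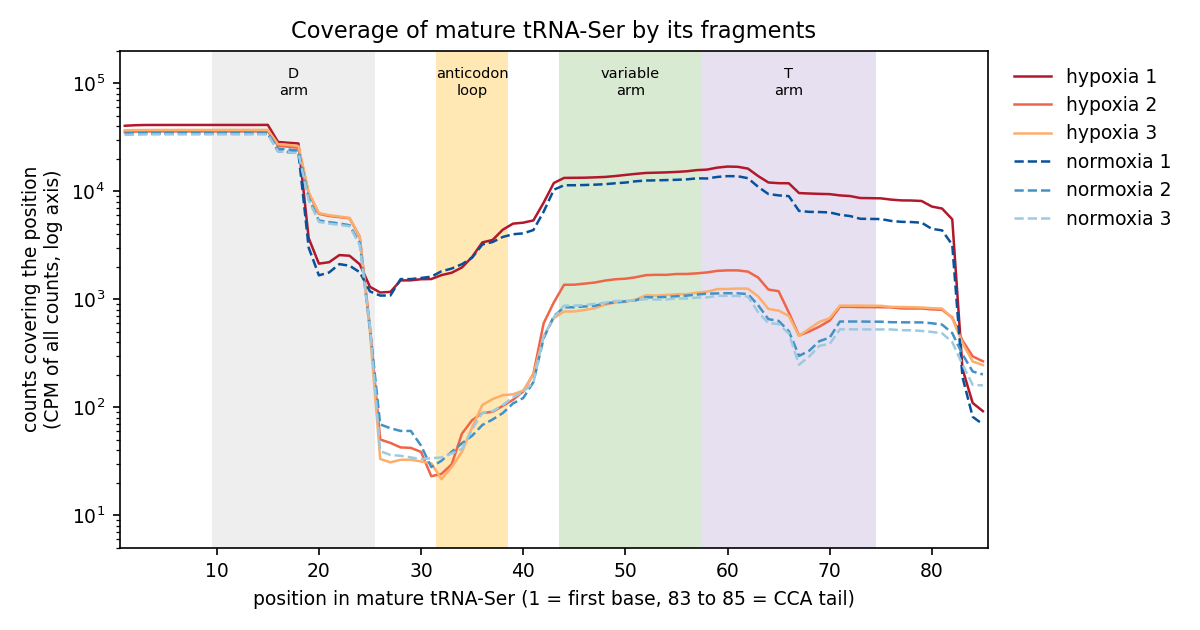
Counts covering each position of mature tRNA-Ser (CPM of all counts, log axis) in the 6 libraries, solid for hypoxia and dashed for normoxia, with the arms shaded. Coverage at position 32 fell to 21.6 to 34.4 CPM in 4 libraries and was 1675 and 1817 CPM in the libraries numbered 1, and it rose again towards the variable arm.

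Beyond the 5' ends, positions 42, 43 and 44, at the border of the variable arm, were the 3 most frequent first bases, with 4564, 5573 and 2937 counts. Sequences that begin there carry the variable arm and reach into the T arm, as the GCT fragments ttgtgctCtgcacgcgtggg and tgtgctTtgcacgcgtgggttc do. Fragments that span position 50, inside the variable arm, made up 22.3%, 3.98% and 2.38% of tRNA-Ser counts in hypoxia and 22.99%, 2.56% and 2.72% in normoxia (exact p = 1). They were again most frequent in the libraries numbered 1, and the groups overlapped.

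The base at position 50 followed the library number, in hypoxia and normoxia alike. The sequences joined for CGA, GCT and TGA occurred with C and with T there, and which gene copies carry which base was not tested. Fragments with C there stood at 11480, 48.4 and 44.9 CPM in hypoxia and 9565, 52.3 and 50.3 CPM in normoxia. Fragments with T there stood at 2309, 1474 and 880 against 2258, 875 and 904 CPM. The lowest C level in the libraries numbered 1 was 183 times the highest in the others, whereas for T this ratio was 1.53. The C form accordingly made up 83.3% and 80.9% of spanning counts in the libraries numbered 1 and 3.18% to 5.64% elsewhere. The position was chosen after its values were seen, no test between library numbers was made, and what sets these libraries apart was not tested.

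**Figure D4:**
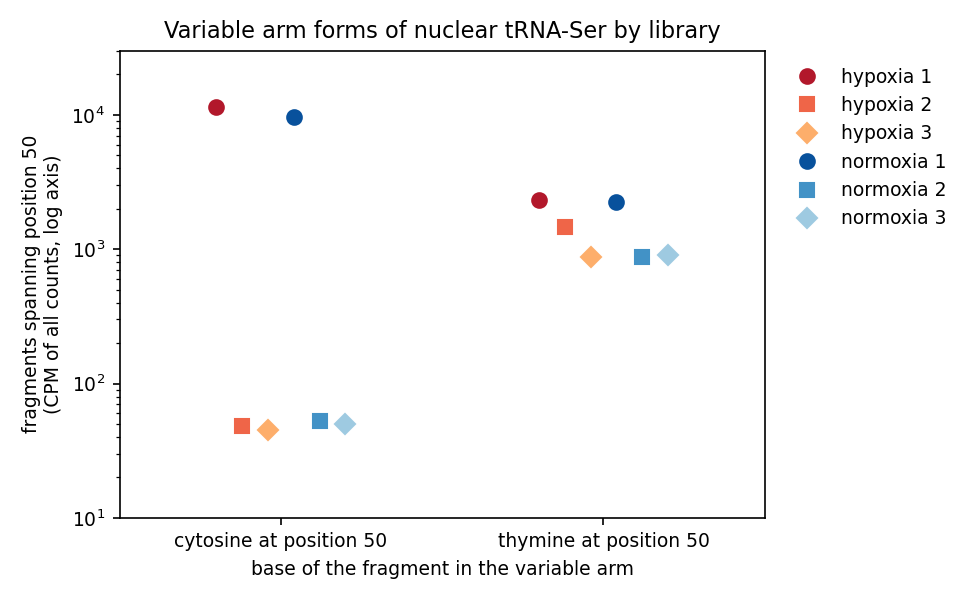
Level of tRNA-Ser fragments that span position 50 of the variable arm, by the base they carry there (CPM of all counts, log axis), 1 point per library. The C form lay at 9565 and 11480 CPM in the libraries numbered 1 and at 44.9 to 52.3 CPM in the other 4, while the T form lay between 875 and 2309 CPM in all 6.

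The same split was seen within GCT, the anticodon with most of these reads. T50C fragments made up 82.7%, 3.30% and 4.93% of GCT counts covering the position in hypoxia and 80.3%, 5.22% and 4.55% in normoxia (exact p = 0.9). The sequence ttgtgctCtgcacgcgtggg had 397, 0 and 0 counts under hypoxia and 266, 2 and 7 under normoxia. The sequence tgtgctTtgcacgcgtgggttc had 11, 680 and 29 against 9, 86 and 39. Hypoxia library 2 held most of its counts. The CGA reads were fewer: T50C made up 50.4% and 28.1% in the libraries numbered 1 and 0% to 2.53% in the others, of 647 covering counts. TGA reads with C numbered 216, 0 and 2 in the hypoxia libraries and 62, 0 and 8 in the normoxia libraries, and those with T 10, 0 and 4 against 5, 7 and 0. In normoxia library 3 they were thus all C, unlike the split by library number, on 8 counts. Here T50C names C in the fragment where T had more counts over all 6 libraries, for GCT 8230 against 6914. The sequences joined for GCT occur with either base, so T50C is not a statement about a change in a given gene.

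The 3' ends split by their last bases. Among fragments whose last base lay at positions 80 to 85, those at 82, the last encoded base, made up 73.1%, 32.6% and 33.2% in hypoxia and 67.05%, 29.5% and 30.5% in normoxia. Those at 85, which carry the whole CCA, made up 1.28%, 33.1% and 29.8% against 1.55%, 33.6% and 31.98%. The libraries numbered 1 thus had almost no CCA ends among these reads, and the groups overlapped at both positions (exact p = 0.5 and 0.7). Leaving GGA aside, the CCA ends were only 4 sequences, none longer than 16 nt.

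Among the 3' ends without CCA, those of GCT were the most numerous, with 4283 counts in 84 sequences. They stood at 3763, 230 and 239 CPM in hypoxia and 2394, 157 and 137 CPM in normoxia, higher in 3 of 3 pairs by ratios of 1.57, 1.46 and 1.75. The groups overlapped, since libraries numbered 1 of either group exceeded all others. The log2 change was 0.71 with a standard error of 1.205 in the model with the group alone, and 0.70 with 0.17 when the replicate number was added as a block (edgeR, unadjusted p = 0.0063, adjusted p = 0.29). Fragments of 37 to 45 nt made up 5.64% and 3.92% of tRNA-Ser counts in the libraries numbered 1 and 0.0384% to 0.066% in the others.

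Whether single fragments differed between hypoxia and normoxia was tested with edgeR's quasi-likelihood test over the whole table. The filter on low counts kept 6452 sequences, 131 of them from tRNA-Ser with 95.1% of its counts: 38 5' ends, 72 internal, 18 3' ends without CCA and 3 CCA ends. No tRNA-Ser fragment passed an adjusted p of 0.05, and neither did any other sequence (0.0% of 6452). At an unadjusted p below 0.05 edgeR had 0 tRNA-Ser fragments on the higher side and 0 on the lower side, against 0.279% and 0.418% of all tested. DESeq2 and limma voom called 0 of all sequences (0.0% each). At an unadjusted p below 0.05 each had 1 higher tRNA-Ser fragment, against 0.527% and 0.868% of all, and 0 lower ones, against 0.775% and 0.821%. With the replicate number as a block, 10 of 6452 sequences passed (0.155%) and 0 were from tRNA-Ser. At an unadjusted p below 0.05 this fit had 4 higher tRNA-Ser fragments, against 3.41% of all, and 0 lower ones, against 2.98%. Without the libraries numbered 1, 0 of 128 tRNA-Ser fragments were called, against 0.0154% of 6498, and at the unadjusted threshold 7 were higher, against 4.52%, and 3 lower, against 4.91%.

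The direction of the changes leaned towards hypoxia, and no test was made of this lean. The log2 change was above 0 in 93 of the 131 tested tRNA-Ser fragments (71.0%), with a median of 0.27, against 51.2% and a median of 0.02 over all tested sequences. Leaving out 1 library could bring the share near that of all sequences: it was 52.5% of 158 without hypoxia library 1 (median 0.08), 51.0% of 308 without normoxia library 2 (median 0.02) and 50.5% of 325 without normoxia library 3 (median 0.02). Without each of the other 3 libraries in turn it was 64.7% to 78.8%. CPM was higher in hypoxia in 3 of 3 pairs for 35 fragments (26.7%), against 15% of all, and lower in 3 of 3 pairs for 6 (4.58%), against 13.4%. Hypoxia and normoxia libraries did not overlap for 2 fragments that were higher and 2 that were lower (1.53% each), against 2.32% and 2.51% of all. These fragments share their source tRNAs and often most of their sequence, and they are not independent.

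Among the higher fragments with the smallest p, the GCT 3' end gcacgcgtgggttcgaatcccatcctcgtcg stood at 141, 42.1 and 17.5 CPM in hypoxia and 48.4, 14.0 and 11.7 CPM in normoxia, higher in 3 of 3 pairs (log2 change 1.44, SE 0.81, edgeR adjusted p = 0.9996). The fragment tgtgctTtgcacgcgtgggttc, with T at 50, stood at 21.5, 265 and 16.9 against 27.2, 38.8 and 23.9 CPM, and was higher in pair 2 alone. The AGA and TGA fragment tagtcgtggccgagtggttaagg, which lacks the first base of the tRNA, stood at 21.5, 59.7 and 11.7 against 3.02, 13.5 and 16.6 CPM. In each of the 3 the groups overlapped.

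Among the lower ones, the AGA and TGA variable arm fragment tggggtTtccccgcgcagg stood at 21.5, 17.6 and 18.1 CPM in hypoxia and 36.3, 27.5 and 57.7 CPM in normoxia, without overlap (log2 change -1.15, SE 0.66, edgeR adjusted p = 0.9996). Its log2 change ranged from -1.40 to -0.54 over the 6 fits that each left out 1 library, with -0.54 without normoxia library 3. The TGA 5' end gcagcgatggccgagTGGT stood at 3.92, 9.36 and 3.50 against 6.05, 13.5 and 27 CPM. The GCT fragment attgtgctTtgcacgcgtgggttcg stood at 21.5, 39.4 and 27.4 against 63.5, 32.5 and 66.9 CPM, and was higher in hypoxia in pair 2. So fragments of the variable arm with T at 50 were found on both sides of 0, and no change in them passed the threshold.

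Counts summed by anticodon set and class gave the same picture with more reads behind each value. Of 26 tRNA-Ser groups, 16 passed the filter, among 276 tested, and 0 were called in any of the settings tried. When groups shared with tRNAs of other amino acids were counted too and the libraries numbered 1 left out, 1 of 19 was called lower (edgeR, adjusted p = 0.0235), the 5' ends common to tRNA-Ser-GGA and tRNA-Phe-GAA. With edgeR and the group alone, 0.0% of all 276 groups were called. None of the 16 had an unadjusted p below 0.05 there, against 0.725% of all groups on the higher side and 0.362% on the lower side. With the replicate block, 0.0% of all groups were called, and at the unadjusted threshold 3 of the 16 were higher, against 5.80% of all, and 0 lower, against 5.07%. These were the GCT 3' ends above, the GCT internal fragments (11114, 1536 and 992 CPM against 10427, 892 and 834, log2 change 0.41, SE 0.17) and the CGA 3' ends without CCA (486, 15.2 and 16.9 against 245, 7.66 and 0.614 CPM, log2 change 1.61, SE 0.63). Adjusted p-values with the block were 0.29, 0.43 and 0.43 in that order. For the CGA 3' ends, the 0.614 CPM of normoxia library 3 is 1 count. Their ratio was 27.6 in pair 3, against 1.98 in each of pairs 1 and 2. The log2 change was above 0 in 11 of the 16 groups (68.8%), and in 5 of 17 (29.4%) without hypoxia library 1. The share over all groups is not given here, so these 2 shares are not read as a lean of tRNA-Ser. In 7 of the 16 groups (43.8%) hypoxia was higher in 3 of 3 pairs, against 19.9% of all groups, and in 0 it was lower in 3 of 3, against 17.4%. No tRNA-Ser group was lower in hypoxia without overlap, against 3.62% of all. Without the libraries numbered 1, 0 of 14 tRNA-Ser groups were called, against 4.83% of 269, and at the unadjusted threshold 3 were higher, against 10.4%, and 0 lower, against 13%.

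**Figure D5:**
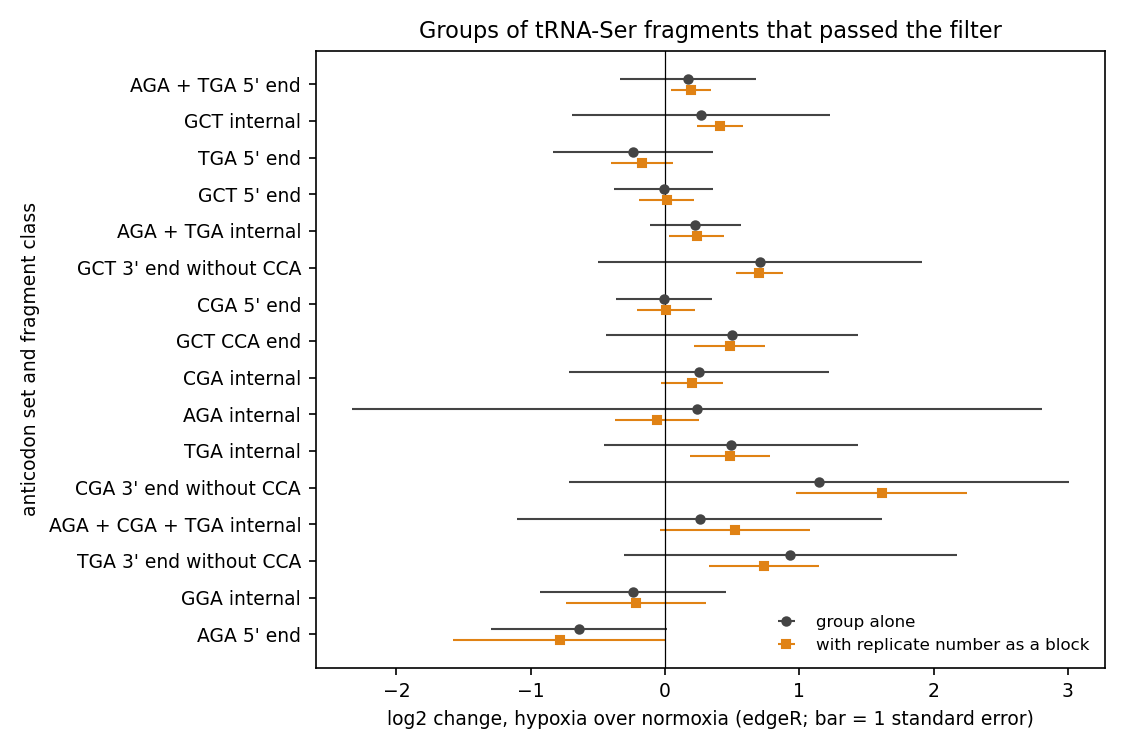
Log2 change, hypoxia over normoxia, of the 16 groups of tRNA-Ser fragments that passed the filter, from edgeR with the group alone (circles) and with the replicate number as a block (squares), with bars of 1 standard error. Most points lay to the right of 0, and the bars were narrower with the block in most groups, with no adjusted p under 0.05 in either fit.

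In the remaining abundant groups the log2 change lay within 1 standard error of 0 in the fit with the group alone, which gave the values below. With the replicate number as a block it lay beyond 1 standard error for 2 of the groups named here. These were the GCT CCA ends (0.48, SE 0.26) and the internal AGA and TGA fragments (0.24, SE 0.205), with edgeR adjusted p of 0.51 and 0.59. The GCT 5' ends stood at 932, 632 and 523 CPM in hypoxia and 853, 538 and 701 CPM in normoxia (log2 change -0.01, SE 0.37). The CGA 5' ends stood at 691, 325 and 315 against 586, 322 and 394 CPM (-0.01, SE 0.36). The TGA 5' ends stood at 572, 734 and 527 against 556, 679 and 896 CPM (-0.24, SE 0.60), and the internal AGA and TGA fragments at 1042, 573 and 456 against 759, 464 and 507 CPM (0.23, SE 0.34). In these 4 groups hypoxia was higher in 2 of 3 pairs and lower in pair 3. The GCT CCA ends, at 86.2, 263 and 244 against 69.5, 202 and 159 CPM, were higher in 3 of 3 pairs (0.50, SE 0.94), and here the libraries numbered 1 were the lowest of each group. The internal CGA fragments stood at 1179, 121 and 107 against 1001, 96 and 112 CPM, and the internal AGA fragments at 1651, 2.73 and 4.08 against 1451, 3.16 and 6.75 CPM. Of the 1813 counts of AGA alone, 1778 span position 50 with C, so the AGA values restate the split by library number at that position.

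The fragment pattern of tRNA-Ser was set against that of tRNA-Leu and of all other nuclear tRNAs within each library. The 5' end share was 84.5 ± 14.9% for tRNA-Ser, 61.9 ± 10.1% for tRNA-Leu and 46.9 ± 10.7% for the others (SD, n = 6 libraries), and tRNA-Ser was higher in 6 of 6 libraries in both comparisons. The internal share was 12.2 ± 11.7% against 28.3 ± 13.9% and 47.0 ± 9.59%, and the CCA end share 0.438 ± 0.243% against 9.53 ± 4.33% and 4.71 ± 0.558%, each lower for tRNA-Ser in 6 of 6 libraries. The share of 3' ends without CCA was 2.78 ± 3.52% against 0.229 ± 0.298% and 1.38 ± 1.77%, higher in 6 of 6. Each of these 8 differences had p = 0.03125 (exact sign-flip permutation test, two-sided, the smallest that 6 libraries can give) and p = 0.0347 when adjusted over 10 comparisons. This test takes the 6 libraries as independent. Over the 3 replicate numbers, which were taken as pairs, the smallest p is 0.25. The libraries include both groups, and tRNA-Ser differed from the other tRNAs in the same direction in each. The 5' ends common to AGA and TGA held 300958 of the 351240 tRNA-Ser counts. Of the 29857 counts of GCT alone, 5610 were 5' ends and 18099 internal. For TGA alone 6227 of 7227 counts were 5' ends, and for CGA alone 3275 of 5529. The high 5' end share is thus that of tRNA-Ser as a whole and was not seen in GCT alone. Single anticodons were not compared with the other tRNAs. Sequences shared between amino acids were left out on each side, and these comparisons were not repeated with them. Those shared with tRNA-Ser held 8742 counts, against 1886 in the CCA ends kept. How far the lower CCA end share depends on this rule was not tested. Of the 1886 CCA end counts, 1865 were of GCT alone, which had 29857 counts in all. The low CCA end share is therefore that of tRNA-Ser as a whole and is not shown for GCT.

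The share of long fragments differed from that of the other tRNAs, and its difference from tRNA-Leu was within the spread of the libraries. Fragments of 30 nt or longer made up 2.93 ± 3.96% of tRNA-Ser counts and 20.4 ± 2.76% of those of the other nuclear tRNAs, lower in 6 of 6 libraries (exact permutation p = 0.03125, adjusted p = 0.0347). They made up 2.24 ± 1.38% for tRNA-Leu, and tRNA-Ser was above it in 2 of 6 libraries, those numbered 1 (difference 0.69 percentage points, range -1.05 to 4.90; exact permutation p = 0.53). When each distinct sequence was counted once in place of its reads, the 5' end share of tRNA-Ser exceeded that of tRNA-Leu by 2.69 percentage points and that of the others by 5.82, and the adjusted exact p rose to 0.174 and 0.0893.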

How the data were processed

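The deposited table holds raw counts of distinct sequences, not normalized, judging from whole numbers whose totals differ between libraries. Per the labels' protocols, enzymes removed RNA modifications ahead of library preparation, and the build mm10 is named in the submitters' processing notes. Aligner, annotation software, tRNA reference and filters: not given in the sources used here. Sample titles gave the groups and replicate numbers, and fragment classes are the suffixes of the annotation. Positions come from exact matching to mature tRNA-Ser, using the AGA and TGA genes in GENCODE M21 and, for the rest, sequences joined from overlapping fragments. Of the 1866 members, 1824 matched at a single position with 99.9% of their counts, and the 42 others included the 19 of GGA. Gene locations and lengths are those of RefSeq on GRCm38.

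Counts were fitted over the whole table, and over 380 sums by annotation set and class, with edgeR 4.0.16 in R 4.3.3: trimmed-mean scaling, filterByExpr and the quasi-likelihood F-test, with a Benjamini-Hochberg adjusted p under 0.05 as the threshold and no term beside the group. The alternatives were DESeq2 1.42.0, limma 3.58.1 (voom), other scalings, no filter, a minimum of 10 counts, the replicate block, libraries left out and shared sequences counted. The scripts were tested on simulated data. Shares were compared by exact permutation tests (Python 3.11.15, NumPy 2.4.6, pandas 2.3.3), and figures drawn with matplotlib 3.10.9. To learn whether replicate numbers pair the libraries, deviations from the group means were correlated between libraries of the same number. The correlations of 0.81, 0.53 and 0.45 were each above the limit of 0.1, so the numbers were taken as pairs. The highest correlation between libraries of different numbers was 0.55, above those of numbers 2 and 3. The deviations are from means of 3 libraries, and those numbered 1 stood apart in both groups. Positive correlations for numbers 2 and 3 can then arise without pairing, so this check cannot settle it for them. Named fragments are the 8 most abundant, the most abundant of each anticodon and class at 5 CPM or more, any past the threshold, and, at 10 CPM or more, the 3 of smallest p in each direction, with at most 1 per anticodon set and class. Members and lists were chosen with earlier results of these data known. Counting error understates the error, since the reads have no molecular identifiers. Full-length tRNA sequences and the results that need them are not reported here.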

Additional observations from a re-analysis of the deposited data

How the results depend on the processing

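The counts of called tRNA-Ser fragments and groups were 0 in every setting tried, the replicate block and each library or pair left out included. The 1 call among groups shared with other families, made without the libraries numbered 1, is outside these counts. The block, with the replicate number as a pairing term, moved the log2 change of gtagtcgtggccgagTGG from 0.17 to 0.18, and it turned that of gtcacggtggccgag from 0.02 to -0.10. No adjusted p of a share fell under 0.05 when groups were exchanged within pairs, where the smallest p is 0.25. DESeq2 gave gtagtcgtggccgag a log2 change of -0.0237 and gtcacggtggccgag -0.0127, both with its own test and with its size factors in edgeR. With sequences shared with other families counted, the hypoxia minus normoxia difference became -0.666 percentage points for CCA ends, 0.691 for AGA and TGA together and 0.0123 for CGA.

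Leaving out single libraries or pairs moved the differences in percentage points over these ranges. The whole of tRNA-Ser ranged from -0.239 to 1.07, 5' ends from -10.7 to 8.49, 3' ends without CCA from -1.56 to 2.85, CCA ends from -0.0115 to 0.285 and internal fragments from -7.22 to 7.84. AGA and TGA together ranged from -9.42 to 9.04, GCT from -6.23 to 7.51, CGA from -0.885 to 0.745, TGA from -0.546 to 0.0971 and AGA from -1.08 to 1.25. Fragments of 15 to 20 nt ranged from -4.33 to 0.669, of 30 to 36 nt from -0.865 to 1.05 and of 37 to 45 nt from -1.27 to 1.88. First bases in the anticodon loop ranged from -1.47 to 1.66 and in the variable arm from -1.09 to 2.26, and last bases from -0.196 to 0.137 and from -0.412 to 0.307. Leaving out a library numbered 1 alone unbalances the groups, and most of these ends come from those settings.

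Log2 changes of named fragments ranged from -0.18 to 0.16 for gtagtcgtggccgag, -0.27 to 0.54 for gtagtcgtggccgagTGGT, -0.19 to 0.79 for gtagtcgtggccgagTGGTTAAGG, -0.27 to 0.74 for gtagtcgtggccgagTGGTTAAG and -0.16 to 0.51 for gtagtcgtggccgagTG. They ranged from -0.57 to 0.18 for gcagcgatggccgag, -0.58 to 0.29 for gtcacggtggccgag, -1.67 to 6.13 for aggttcgaatcctgttcgtgacg, -2.17 to 4.22 for gaatcccatcctcgtcg, -0.12 to 0.73 for ccaccttcgtcgCCA and -0.88 to 2.41 for tgtgctTtgcacgcgtgggttc.

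Against tRNA-Leu, the differences ranged from 20.98 to 25.9 for 5' ends, 0.537 to 3.56 for 3' ends without CCA, -11.7 to -7.66 for CCA ends, -16.9 to -14.7 for internal fragments and -0.957 to 1.52 for 30 nt or longer. Against the other tRNAs they ranged from 35.98 to 40.4, 0.31 to 1.96, -4.46 to -4.13, -36.2 to -33.7 and -18.6 to -16.8 in the same order. With fewer than 6 libraries the adjusted p cannot fall below 0.05. Counting each distinct sequence once gave 2.69, 8.22, -1.45 and -9.45 against tRNA-Leu for the first 4 measures, and 5.82, 6.25, -1.14, -10.9 and -11.9 against the others.

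Of the 1866 sequences, 539 had 1 count in all, too few for any comparison. Reads at 15 and 45 nt end at the limits of the table, so shorter and longer fragments were not analysed here.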

Other observations

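The CGA fragments came with 2 acceptor stems. In 5' ends the form gtcacggtggccgag was the more common, and reads with T2C made up 9.07%, 17.9% and 18.5% of CGA counts covering position 2 in hypoxia and 10.3%, 21.5% and 19.1% in normoxia (exact permutation p = 0.5). At the 3' side, T74C made up 32.2%, 11.2% and 40.8% in hypoxia and 20%, 5.62% and 3.03% in normoxia, of 1066 covering counts (exact permutation p = 0.2). It was higher in 3 of 3 pairs, with overlapping groups.

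The GCT fragments came with several forms of the 3' side. T74C made up 8.24%, 31.3% and 33.2% of GCT counts covering position 74 in hypoxia and 7.16%, 37.3% and 35.6% in normoxia (exact permutation p = 0.6), and C76T almost the same shares. G79A made up 0.998%, 18.1% and 13.8% of GCT counts covering position 79 in hypoxia and 1.11%, 13.6% and 10.7% in normoxia (exact permutation p = 0.6). For each of these substitutions the libraries numbered 1 were low in both groups. The CCA end ccaccttcgtcgCCA, which carries T74C and C76T, stood at 60.7, 167 and 162 CPM in hypoxia and 48.4, 142 and 118 CPM in normoxia, higher in 3 of 3 pairs (log2 change 0.30, SE 0.79). It held 31, 429 and 278 of the 243, 575 and 422 T74C counts in hypoxia. In normoxia it held 16, 315 and 193 of 97, 446 and 249. The T74C and C76T shares thus largely repeat the split of the CCA ends by library number and are not a separate result.

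The 19 tRNA-Ser-GGA sequences held 131 counts, 123 of them internal. RefSeq places the single gene n-TSgga1 at chr11:100538158-100538230 with a length of 73 nt, shorter than the other tRNA-Ser genes. Its internal fragments stood at 37.2, 6.63 and 15.8 CPM in hypoxia and 57.4, 9.02 and 12.9 CPM in normoxia (log2 change -0.24, SE 0.70, edgeR with the group alone).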
